A study of Mus musculus with 80 samples.

Results

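CD150high hematopoietic stem cells (HSCs) of old mice were profiled by bulk RNA-seq on day 4 after transplantation and set against freshly isolated old HSCs of the G4 group, the 25% of the old population with the highest surface CD150. The 3 day-4 libraries and the 3 G4 libraries were 6 of the 24 bulk RNA libraries among the 80 samples of the series, which asked whether the CD150 level separates old HSCs with different functions. CD150, encoded by *Slamf1*, is a receptor of the SLAM family used to purify HSCs. The comparison addressed how CD150high old HSCs are activated once they are placed in a conditioned host. All 21825 gene symbols of the 6 tables were read, and the 11528 with a mean of at least 1 FPKM (fragments per kilobase of transcript, scaled to the mapped fragments of the library) in either group were tested.

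Donors in both groups were male C57BL/6 mice, aged 22 to 24 months by the methods of the study, whose own sample list gives a wider range. Donor HSCs came from the lineage-negative Sca-1+c-Kit+ fraction of bone marrow, where cells without CD48 and CD34 that carried CD150 were taken. For the day-4 group, sorted CD150high HSCs were given to CD45.1 recipients (9.5 Gy of irradiation) together with helper marrow depleted of Sca-1+ cells, and donor cells were sorted again. The gate of that second sort is not given in the sources used here. The sample list of the study calls these cells hematopoietic stem and progenitor cells, while their labels call them HSCs, the name used here. The G4 libraries are labelled by mouse, and the day-4 libraries only as replicates, so whether these came from separate recipients is not known and p-values measure the spread among these samples. Transplantation, the irradiated host, the helper cells and the second sort came together in the day-4 group and cannot be told apart.

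Long-term HSCs of adult marrow are mostly quiescent, and they are known to enter the cell cycle when they are challenged, as by transplantation into a conditioned host. Entry into the cycle is driven by cyclin E and E2F factors at the start of S phase and by CDK1 with B-type cyclins at mitosis, while CDK inhibitors such as p57 hold cells in G0. Stem cell identity is maintained by transcription factors such as HLF, GATA2 and MECOM and by receptors such as KIT.

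Libraries of a group resembled each other more than those of the other group, with Pearson's r over log2 values of 0.976 to 0.979 within G4, 0.954 to 0.975 within the day-4 group and 0.871 to 0.906 between them. Replicate 1 of the day-4 group had the lower r of 0.954 with each of the others. FPKM summed to 578469 to 607369 in the G4 libraries and to 688567 to 723259 in the day-4 libraries. Genes at 1 FPKM or more numbered 11037 to 11157 in G4 and 10362 to 10457 on day 4. Read totals are unknown, but the smallest FPKM steps placed the day-4 libraries at a relative depth of 0.57 to 0.61 and the G4 libraries at 0.72 to 1.0. All 13 mitochondrially encoded genes were listed at 0 in every library, so an exact 0 is reported here only as listed.

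Of the 11528 genes tested, 915 (7.94%) rose and 1824 (15.8%) fell by more than 2-fold at a Benjamini-Hochberg adjusted p under 0.05 (limma on log2(FPKM + 1)). Fold changes are differences of mean log2(FPKM + 1), which understate the change of genes at low levels. The falling genes thus outnumbered the rising ones, and the risen genes were the more abundant ones. The risen genes had a median of 14.8 FPKM in G4 and 53.5 FPKM on day 4, and the fallen genes 11.6 and 3.3 FPKM. Changes of more than 8-fold were seen for 69 of the risen and 57 of the fallen genes. The 3 day-4 values lay above all 3 G4 values for 2542 genes (22.1%) and below them for 3912 (33.9%), and 53 of the 2739 genes called had overlapping ranges. The median log2 fold change over all genes tested was -0.21. The gene groups are read against this value and against the shares of 7.94% risen and 15.8% fallen. A gene with a mean below 1 FPKM in 1 group passed the filter through the other group alone. The direction of its change was then fixed by the filter.

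**Figure D1:**
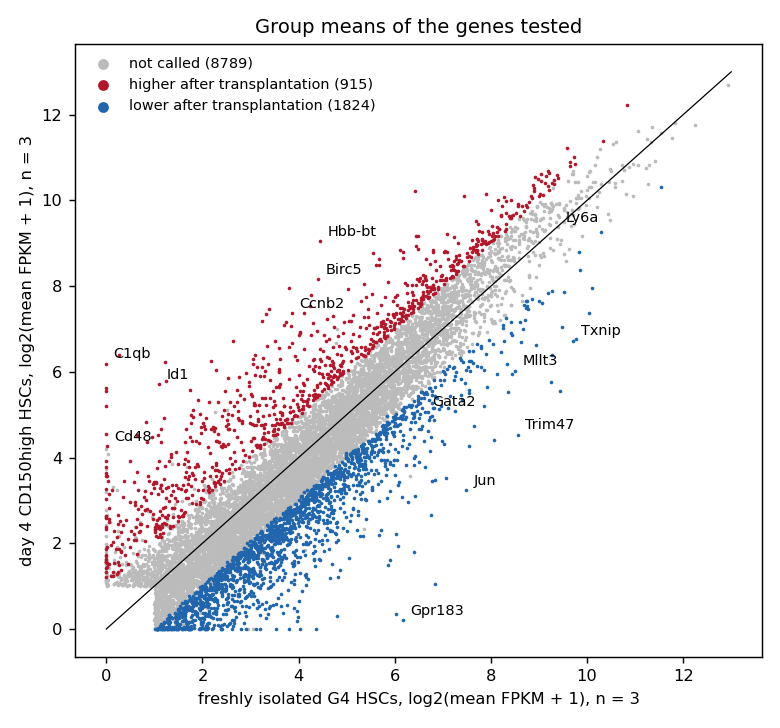
Each point is a gene, placed by the log2(mean FPKM + 1) of the 3 fresh G4 libraries on the x axis and of the 3 day-4 CD150high libraries on the y axis. The 915 risen genes are red, the 1824 fallen genes blue and the other 8789 grey, and the fallen genes lie lower on the axes than the risen ones.

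The split between rising and falling genes moved with the scaling. When every library was scaled to the same total, as TPM, the median of all genes moved by -0.25 to -0.45. Of 12094 genes then tested 624 rose and 2852 fell, so that 18.0% of calls were rises against 33.4% as deposited. Counts of gene lists under TPM scaling are to be read against these totals, since falls became more frequent over all genes. When libraries were scaled by median ratios, 1074 rose and 1561 fell (40.8% rises). Transcript length also went with the direction. The median mRNA length was 1746 nucleotides for risen genes, 2754 for fallen genes and 2778 for all genes tested. Of the 25% of genes with the shortest transcripts 15.8% rose and 13.2% fell, and in the 3 groups of longer transcripts 3.83% to 6.87% rose and 13.9% to 19.3% fell. The part of transcript length in these counts was not tested.

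Genes of mitosis rose together. Of 26 tested regulators of mitotic entry and exit, 21 rose and none fell (median log2 fold change 2.53), and of 44 genes of the kinetochore, spindle and cytokinesis, 40 rose and none fell (median 2.64). *Ccnb2*, a B-type cyclin that activates CDK1, was at 2.23, 8.59 and 30.0 FPKM in the G4 libraries and at 105, 201 and 185 FPKM in the day-4 libraries (log2 fold change 4.01 ± 0.624 SE, adjusted p = 0.000503). *Cdkn3*, a phosphatase of cyclin-dependent kinases that is itself made in mitosis, went from 0.844, 0.394 and 9.34 to 70.9, 80.2 and 74.5 FPKM (log2 fold change 4.67 ± 0.591 SE, adjusted p = 0.000125). In both genes replicate 3 of G4 was the highest fresh library and still lay below every day-4 library. *Birc5*, encoding the chromosomal passenger protein survivin, was at 11.4, 15.9 and 33.4 FPKM before and 199.9, 292 and 364 FPKM after transplantation (log2 fold change 3.85 ± 0.33 SE, adjusted p = 9.83e-06). *Ube2c*, the ubiquitin-conjugating enzyme of the anaphase-promoting complex, spanned a wide range in G4, 1.88, 10.7 and 41.6 FPKM, and reached 208, 258 and 199 FPKM (log2 fold change 4.29 ± 0.709 SE, adjusted p = 0.000729).

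Other mitotic genes were lower and more even before transplantation. *Ska1*, which ties kinetochores to microtubules, rose from 0.511, 2.13 and 0.914 to 20.1, 23.5 and 30.0 FPKM, and *Sgo1*, the protector of centromeric cohesion, from 2.12, 1.66 and 3.32 to 30.3, 35.7 and 26.7 FPKM. The G4 libraries held at most 3.32 FPKM of either gene. Of 14 genes of chromosome condensation, 12 rose and none fell (median 2.32). *Top2a*, the topoisomerase that untangles sister chromatids, went from 7.24, 7.81 and 12.5 to 96.9, 92.2 and 99.4 FPKM (log2 fold change 3.29 ± 0.198 SE, adjusted p = 1.22e-06). *Mki67*, the proliferation marker Ki-67, went from 1.27, 2.55 and 2.59 to 26.2, 25.3 and 21.6 FPKM (log2 fold change 3.04 ± 0.27 SE, adjusted p = 1.2e-05). *Ncapg*, a condensin subunit, was at 2.45, 2.43 and 2.56 FPKM in G4 and at 28.8, 35.2 and 36.4 FPKM on day 4. Of 12 ubiquitin-system genes of the cell cycle 6 rose and none fell (median 1.34), among them *Fbxo5*, the early mitotic inhibitor of the anaphase-promoting complex (log2 fold change 2.39 ± 0.244 SE, adjusted p = 2.86e-05).

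The promoters of the listed mitotic genes, whether or not the genes rose, were searched for short sequence motifs. Mitotic promoters are known for CCAAT boxes, bound by NF-Y, and for the cell cycle homology region TTTGAA, bound by DREAM and MuvB complexes, and S phase promoters for E2F sites such as TTTNGCGC. RefSeq windows of 300 bases (250 before to 50 after the transcription start, GRCm38.p6) were found for 68 of 83 mitotic genes, in 74 windows, and were searched on both strands. CCAAT was present in 67.6% of these windows against 37.4% of all 32851 windows in the table, and TTTGAA in 64.9% against 17.9%. TTTNGCGC was present in 8.11% against 1.38%. For 28 of 33 replication fork genes, in 34 windows, the shares were 47.1%, 14.7% and 17.6%. For 739 of the 915 risen genes they were 47.9%, 21.9% and 6.33%, and for all genes tested 38.2%, 12.6% and 2.47%. These are counts of letters and do not show binding. The shares of the mitotic and replication fork lists were counted without regard to which members rose. The lists themselves were chosen with earlier results of these data known, so the shares are not independent of the data.

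The windows of 5 risen genes, picked because they hold the motif, show where these letters stood. The motif named for each is in capitals, and positions are counted from the transcription start. In *Cdkn3* (chr14:46760291-46760590, plus strand) TTTGAA stood as its reverse complement TTCAAA, beginning 111 bases before the start. In *Ccnb2* (chr9:70421505-70421804, minus strand) it began 167 bases before and 4 bases after the start, in the same orientation at both sites. In *Cenpk* (chr13:104228361-104228660, plus strand), a kinetochore gene, CCAAT began 159 bases before the start. TTTNGCGC began 27 bases before the start, as the reverse complement GCGCCAAA, in *Kif15* (chr9:122950831-122951130, plus strand), a spindle motor gene. In *Cdk1* (chr10:69352863-69353162, minus strand) it began 131 bases before the start.
Cdkn3: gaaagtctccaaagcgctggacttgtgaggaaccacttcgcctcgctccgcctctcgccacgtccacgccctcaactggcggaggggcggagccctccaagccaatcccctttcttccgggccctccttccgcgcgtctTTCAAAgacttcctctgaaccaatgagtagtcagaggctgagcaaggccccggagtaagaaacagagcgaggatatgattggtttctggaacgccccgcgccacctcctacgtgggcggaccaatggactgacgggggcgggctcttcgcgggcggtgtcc
Ccnb2: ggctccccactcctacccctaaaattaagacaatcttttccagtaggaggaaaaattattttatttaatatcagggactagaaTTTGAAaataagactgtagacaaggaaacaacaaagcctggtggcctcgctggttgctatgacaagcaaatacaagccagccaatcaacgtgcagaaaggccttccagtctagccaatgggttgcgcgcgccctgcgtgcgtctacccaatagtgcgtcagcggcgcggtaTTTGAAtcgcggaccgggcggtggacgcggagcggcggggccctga
Cenpk: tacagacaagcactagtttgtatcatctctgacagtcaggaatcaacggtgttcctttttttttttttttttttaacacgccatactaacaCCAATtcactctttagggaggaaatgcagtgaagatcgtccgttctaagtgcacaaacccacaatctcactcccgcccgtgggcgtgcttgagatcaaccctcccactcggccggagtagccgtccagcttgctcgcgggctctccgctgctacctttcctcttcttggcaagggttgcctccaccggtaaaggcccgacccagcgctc
Kif15: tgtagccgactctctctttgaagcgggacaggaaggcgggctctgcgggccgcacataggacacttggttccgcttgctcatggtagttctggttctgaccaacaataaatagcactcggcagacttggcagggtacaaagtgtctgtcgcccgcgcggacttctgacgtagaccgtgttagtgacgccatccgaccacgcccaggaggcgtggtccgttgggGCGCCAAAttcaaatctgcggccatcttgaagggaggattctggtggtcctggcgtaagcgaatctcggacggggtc
Cdk1: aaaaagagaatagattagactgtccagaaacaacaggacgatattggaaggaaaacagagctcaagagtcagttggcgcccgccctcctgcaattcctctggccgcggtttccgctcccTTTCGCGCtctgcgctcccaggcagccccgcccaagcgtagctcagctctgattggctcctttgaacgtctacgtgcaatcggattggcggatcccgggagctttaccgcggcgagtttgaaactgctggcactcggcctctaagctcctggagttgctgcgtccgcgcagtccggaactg

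The apparatus of DNA replication rose with the mitotic genes. Of 20 tested genes of origin licensing and firing 17 rose, and of 33 genes of the replication fork 25 rose, with none falling and a median of 1.72 in both lists. *Mcm5*, a subunit of the replicative helicase, was at 20.8, 11.2 and 16.8 FPKM in G4 and at 105, 77.5 and 94.1 FPKM on day 4 (log2 fold change 2.46 ± 0.215 SE, adjusted p = 1.08e-05). *Mcm10* and *Gins1*, which help the helicase to start, and *Gmnn*, encoding the licensing inhibitor geminin, rose by 2.84, 2.76 and 2.33 on the log2 scale. *Clspn*, the checkpoint adaptor claspin, went from 6.95, 3.97 and 3.43 to 55.9, 65.6 and 48.3 FPKM, and *Lig1*, which joins Okazaki fragments, from 20.4, 11.6 and 13.9 to 127, 124 and 103 FPKM. No day-4 library overlapped G4 for these genes. *Nasp*, a histone chaperone, went from 16, 12.2 and 17.7 to 122, 122 and 116 FPKM, and *Hells*, a chromatin remodeler, from 12.8, 10.2 and 10.0 to 104, 98.9 and 77 FPKM. Over all 136 cell cycle genes of the mitosis and replication lists, 114 rose and none fell (median 2.26), and their summed level was 2561 to 3161 FPKM in the G4 libraries and 10396 to 11506 FPKM in the day-4 libraries.

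Supply of DNA precursors and histones rose in part. Of 34 genes of nucleotide synthesis 16 rose and 1, *Cmpk2*, a mitochondrial nucleotide kinase, fell. *Rrm2*, the regulated subunit of ribonucleotide reductase, was at 16.2, 10.6 and 10.0 FPKM before and at 151, 127 and 152 FPKM after transplantation (log2 fold change 3.46 ± 0.185 SE, adjusted p = 6.35e-07). *Tk1*, thymidine kinase, went from 18.9, 15.1 and 14.7 to 169, 151 and 171 FPKM (log2 fold change 3.26 ± 0.14 SE, adjusted p = 2.33e-07) and *Tyms*, thymidylate synthase, from 75.8, 57 and 72.7 to 407, 460.4 and 507.5 FPKM (log2 fold change 2.73 ± 0.128 SE, adjusted p = 3.41e-07). The 3 enzymes kept narrow ranges within each group. Of 38 replication-dependent histone genes 15 rose and 2, *H1f2* and *H3c6*, fell, in libraries primed on poly(A), a tail that replication-dependent histone mRNAs usually lack. Reads of the near-identical histone copies could be split between them, so that single genes such as *H1f5* (log2 fold change 3.94 ± 0.464 SE, adjusted p = 7.63e-05) are uncertain. Of 36 DNA repair genes 19 rose and none fell (median 1.24), led by *Exo1*, a nuclease of mismatch repair and recombination (log2 fold change 3.36 ± 0.323 SE, adjusted p = 1.92e-05), and including *Chek1*, the replication checkpoint kinase (log2 fold change 2.66 ± 0.275 SE, adjusted p = 3.13e-05).

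At the boundary of G1 and S phase, 7 of 18 genes rose and 1 fell (median 0.73). *Ccne1* and *Ccne2*, the E-type cyclins, were at 0.148, 1.57 and 1.11 FPKM and 3.23, 2.15 and 1.57 FPKM in G4. On day 4 they were at 23.1, 16.3 and 24.1 FPKM (log2 fold change 3.57 ± 0.347 SE, adjusted p = 2.06e-05) and 48.7, 47.8 and 42.5 FPKM (log2 fold change 3.86 ± 0.243 SE, adjusted p = 1.53e-06). *Rb1*, the retinoblastoma repressor of E2F factors, was the member that fell, from 125, 89.4 and 112 to 29.7, 32.7 and 28.8 FPKM (log2 fold change -1.80 ± 0.148 SE, adjusted p = 7.6e-06). *Myc*, a growth regulator, did not reach the 2-fold limit, at 157, 181 and 149 FPKM in G4 and 108, 111 and 84.4 FPKM on day 4 (log2 fold change -0.68 ± 0.13 SE, adjusted p = 0.0018).

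Inhibitors of proliferation mostly moved down. Of 16 CDK inhibitors and antiproliferative genes, 8 fell and 1 rose (median -0.98). *Cdkn1c*, encoding p57, a guardian of HSC quiescence, was at 55.8, 59.7 and 59.7 FPKM in G4 and at 11.8, 20.3 and 7.92 FPKM on day 4 (log2 fold change -2.14 ± 0.27 SE, adjusted p = 0.00012). *Txnip*, which restrains glucose uptake and thioredoxin, fell from 873, 815 and 833 to 107, 106 and 101 FPKM (log2 fold change -2.99 ± 0.079 SE, adjusted p = 6.34e-09). The 3 libraries of each group lay close together, and no day-4 value came near a G4 value. *Btg2*, an antiproliferative p53 target, and *Klf2*, a factor of lymphocyte quiescence, fell by 1.92 and 1.68 on the log2 scale. Their means were 7.89 and 5.11 FPKM in G4 and 1.38 and 0.925 FPKM on day 4. In fresh unseparated old HSCs they were also low, at 2.78 and 0.837 FPKM. *Cdkn1c* had a mean of 44 FPKM in unseparated old HSCs, nearer to the 58.4 FPKM of G4 than to the 13.3 FPKM of day 4. The riser was *Rgcc*, a regulator of the cell cycle, at 14.8, 13.2 and 15.6 FPKM in G4 and 34.3, 41.3 and 52.3 FPKM on day 4 (log2 fold change 1.47 ± 0.19 SE, adjusted p = 0.000139).

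**Figure D2:**
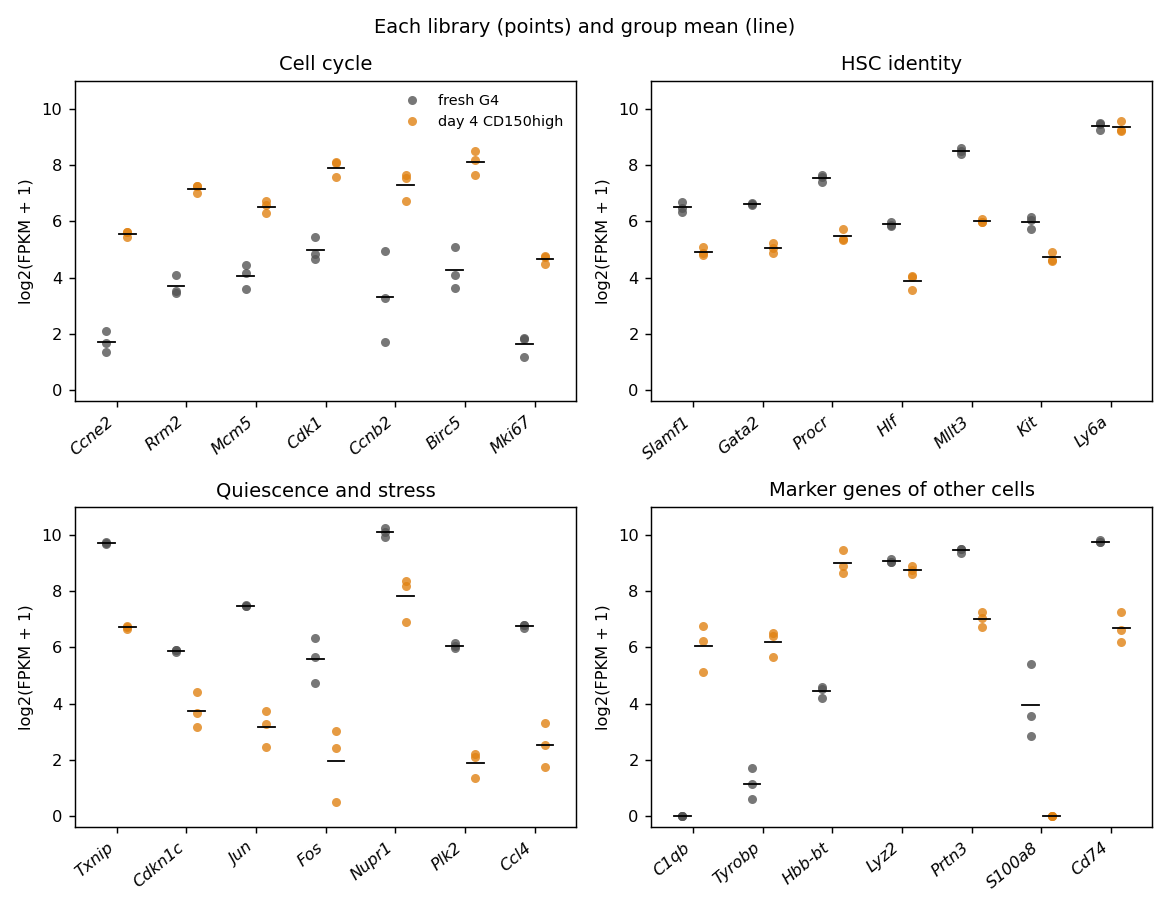
Points give log2(FPKM + 1) of single libraries for 28 genes in 4 panels (cell cycle, HSC identity, quiescence and stress, marker genes of other cells), grey for the 3 fresh G4 libraries and orange for the 3 day-4 CD150high libraries. The cell cycle genes all separate upward, such as *Mki67* from 1.27 to 2.59 FPKM in G4 to 21.6 to 26.2 FPKM on day 4, while *Ly6a* overlaps between the groups.

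Fewer genes of growth and energy metabolism passed the test. Of 49 ribosome biogenesis genes 11 rose and none fell (median 0.65), or 6 under TPM scaling (median 0.41). Of 38 translation factors 3 rose (median 0.51, with 1 riser under TPM) and of 40 ribosomal protein genes 3 rose (median 0.36, with 2 risers and a median of 0.11 under TPM), shares close to the 7.94% over all genes tested. *Nhp2*, a component of box H/ACA ribonucleoproteins, went from 113, 108.5 and 119 to 315, 409 and 435 FPKM (log2 fold change 1.74 ± 0.122 SE, adjusted p = 2.74e-06) and *Mrto4*, a ribosome assembly factor, from 34.8, 32.8 and 44.4 to 85.9, 129.8 and 121 FPKM (log2 fold change 1.55 ± 0.177 SE, adjusted p = 6.13e-05). Of 42 genes of the TCA cycle and oxidative phosphorylation 17 rose and none fell (median 0.85), but 6 rose under TPM scaling (median 0.61). *Cycs*, cytochrome c, was at 44.4, 45.1 and 46.4 FPKM before and 189, 237.5 and 241 FPKM after transplantation (log2 fold change 2.26 ± 0.12 SE, adjusted p = 6.3e-07), and *Cox5a*, a subunit of cytochrome oxidase, at 304, 283 and 338 and 1009.5, 1153 and 1087.5 FPKM (log2 fold change 1.81 ± 0.0878 SE, adjusted p = 4.03e-07). *Hspe1*, the mitochondrial co-chaperonin, was among 5 of 24 cytosolic and mitochondrial chaperones that rose, at 131, 124 and 148 FPKM in G4 and 523, 629 and 633 FPKM on day 4 (log2 fold change 2.14 ± 0.105 SE, adjusted p = 4.03e-07). Of 12 housekeeping genes 3 also rose, *Ppia*, *Hprt* and *Pgk1*, and the median of that list was 0.58, but under TPM scaling *Hprt* (0.83) and *Pgk1* (0.97) were no longer past 2-fold.

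Genes of glycolysis rose at a share close to that of all genes tested, and none of lipid synthesis rose. Of 24 glycolytic genes 6 fell and 2, *Pgk1* and *Slc16a1*, rose, beside 15.8% and 7.94% of all genes tested. Their median of -0.30 was close to the -0.21 of all genes, and under TPM scaling 8 fell and 0 rose. The median level of the list on the log2(FPKM + 1) scale was 5.78 in G4 and 5.17 on day 4. In fresh unseparated old HSCs it was 5.15. *Slc2a3*, the glucose transporter GLUT3, fell from 40.4, 34.8 and 40.7 to 8.27, 9.32 and 12.7 FPKM (log2 fold change -1.85 ± 0.2 SE, adjusted p = 4.18e-05), and *Pfkfb3*, which makes the activator of phosphofructokinase, from 20.4, 15 and 16.5 to 3.61, 3.5 and 1.79 FPKM (log2 fold change -2.23 ± 0.285 SE, adjusted p = 0.000131). *Pgk1*, phosphoglycerate kinase, was at 113, 104 and 114 FPKM in G4 and 221, 271 and 285.5 FPKM on day 4 (log2 fold change 1.22 ± 0.113 SE, adjusted p = 1.56e-05). Of 22 genes of cholesterol synthesis and uptake, 6 fell and none rose, among them *Insig1*, which retains the sterol sensor in the endoplasmic reticulum (log2 fold change -2.21 ± 0.281 SE, adjusted p = 0.000129). Of 14 genes of the response to amino acid shortage 2 rose and 4 fell. *Trib3*, an ATF4 target that inhibits AKT, fell from 40.7, 37.9 and 39.9 to 2.26, 3.23 and 5.06 FPKM (log2 fold change -3.21 ± 0.255 SE, adjusted p = 5.94e-06), while *Psat1*, of serine synthesis, rose from 31.8, 33.5 and 37.5 to 94.4, 117 and 139 FPKM (log2 fold change 1.73 ± 0.154 SE, adjusted p = 1.25e-05).

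HSC transcription factors fell, and none of those tested rose. Of 46, 25 were called lower (median -1.08). *Mllt3*, a chromatin reader that sustains HSC self-renewal, fell from 387, 366 and 338 to 66.9, 62.3 and 62.7 FPKM (log2 fold change -2.49 ± 0.096 SE, adjusted p = 1.61e-07). *Tsc22d1*, a TGF-beta responsive factor, fell from 636, 513 and 692 to 87.9, 73.4 and 88.9 FPKM (log2 fold change -2.86 ± 0.125 SE, adjusted p = 2.43e-07), and *Zbtb20*, a zinc finger repressor, from 100.2, 89.1 and 105 to 12.5, 19.1 and 6.62 FPKM (log2 fold change -2.96 ± 0.288 SE, adjusted p = 2.07e-05). In each the day-4 libraries were all below the lowest G4 library by several fold. *Hlf* and *Gata2*, factors of HSC quiescence and maintenance, fell from 57.6, 62.1 and 56.2 to 15.1, 15.7 and 10.9 FPKM (log2 fold change -2.01 ± 0.174 SE, adjusted p = 1.05e-05) and from 101, 94.2 and 98.2 to 36.8, 28.7 and 32.3 FPKM (log2 fold change -1.56 ± 0.132 SE, adjusted p = 8.87e-06). *Mecom*, needed for HSC self-renewal, had lower values on day 4, at 39.5, 43.5 and 42.6 FPKM against 76.3, 73.7 and 56.5 FPKM, but did not reach the 2-fold limit (log2 fold change -0.69 ± 0.145 SE, adjusted p = 0.00324). In bulk libraries, fewer cells of a type and less RNA per cell cannot be told apart.

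Many genes of HSC surface proteins fell, but those that define the sort did not all follow. Of 49, 25 fell and 1 rose (median -1.12). *Slamf1*, encoding CD150, was at 102, 79.3 and 89 FPKM in G4 and at 28.2, 26.9 and 33.3 FPKM on day 4 (log2 fold change -1.58 ± 0.145 SE, adjusted p = 1.45e-05). *Procr*, the endothelial protein C receptor, fell from 201, 192.5 and 168 to 52, 39.8 and 40.7 FPKM (log2 fold change -2.06 ± 0.133 SE, adjusted p = 1.73e-06), and *Kit*, the stem cell factor receptor, from 51.7, 71 and 65.3 to 29.2, 24 and 23.1 FPKM (log2 fold change -1.26 ± 0.165 SE, adjusted p = 0.000156). *Ly6a*, encoding Sca-1, overlapped between the groups at 719, 699.8 and 604 FPKM and 596.5, 767 and 617 FPKM (log2 fold change -0.04 ± 0.107 SE, adjusted p = 0.805). The gene that rose was *Cd48*, whose protein is absent from the sorted donor HSCs, from 0.043, 0.00144 and 0 FPKM to 13.4, 16.2 and 25 FPKM (log2 fold change 4.20 ± 0.31 SE, adjusted p = 3.86e-06). *Cd34* was at 37.9, 24.8 and 26.4 FPKM in G4, although its protein was gated out, and at 27.9, 20.8 and 8.12 FPKM on day 4 (log2 fold change -0.75 ± 0.366 SE, adjusted p = 0.119). *Cxcr4*, the receptor that retains HSCs in marrow, was at 9.44, 11.6 and 10.2 FPKM before and at 15.9, 10.8 and 7.99 FPKM after transplantation (log2 fold change 0.10 ± 0.268 SE, adjusted p = 0.792).

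Megakaryocyte and platelet genes and cytokine receptors also moved down. Of 25 megakaryocyte and platelet genes, 13 fell and 1, *Gata1*, rose (median -1.21), though the call of *Gata1* was lost when replicate 2 or 3 of the day-4 group or replicate 1 or 2 of G4 was left out (1.33 to 1.77). *Itgb3*, the beta chain of the fibrinogen receptor, went from 17.9, 15.1 and 16.9 to 2.05, 1.18 and 1.01 FPKM (log2 fold change -2.89 ± 0.277 SE, adjusted p = 1.91e-05), and *Clec1b*, the platelet receptor CLEC-2, from 13.2, 11.6 and 13.4 to 0, 0.0619 and 2.55 FPKM (log2 fold change -3.14 ± 0.456 SE, adjusted p = 0.000314). *Trpc6*, a cation channel, and *Plek*, a substrate of protein kinase C in platelets, fell by 2.87 and 2.71 on the log2 scale. *Vwf*, von Willebrand factor, was at 86.2, 94 and 65.9 FPKM in G4 and 45, 41.2 and 63.5 FPKM on day 4 and did not pass 2-fold (log2 fold change -0.71 ± 0.185 SE, adjusted p = 0.0102). Of 42 cytokine and growth factor receptors, 15 fell and 1, *Epor*, rose (median -0.73), among them *Csf3r*, the G-CSF receptor, from 22.6, 16.7 and 17.3 to 2.1, 1.97 and 2.26 FPKM (log2 fold change -2.67 ± 0.252 SE, adjusted p = 1.71e-05), and *Osmr*, the oncostatin M receptor, from 2.81, 3.52 and 4.36 to 0.00173, 0 and 0.00174 FPKM (log2 fold change -2.17 ± 0.294 SE, adjusted p = 0.000193). *Clec1b* and *Osmr* passed the filter through G4 alone. The call of *Epor* was lost under TPM scaling (0.85), without replicate 3 of the day-4 group (0.87) and without replicate 1 of G4 (0.90). That of *Gata1* was also lost with no filter and with no variance trend.

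Genes listed by the study as HSC aging markers of a public data set were high in G4 and fell after transplantation. Of 92 tested, 72 fell and 1 rose, with a median of -1.67, or -1.60 without the 3 genes listed at 0 in every day-4 library. As in every list, a gene could pass the filter through G4 alone, as *Zg16* and *Gpr183* did. Such a gene could only be lower on day 4, so the count and both medians follow in part from the filter. *Zg16*, a zymogen granule lectin, went from 61.3, 39.5 and 92.2 to 0, 0.27 and 0.527 FPKM (log2 fold change -5.63 ± 0.332 SE, adjusted p = 1.05e-06) and *Sbspon*, a secreted matrix protein, from 92.5, 80.5 and 76.8 to 1.13, 3.77 and 2.51 FPKM (log2 fold change -4.67 ± 0.281 SE, adjusted p = 1.22e-06). *Clca3a1*, a regulator of chloride channels, went from 49.8, 55.6 and 66 to 0.0158, 2.26 and 3.13 FPKM (log2 fold change -4.59 ± 0.445 SE, adjusted p = 2.01e-05). None of these 3 genes exceeded 3.77 FPKM in a day-4 library. *Clu*, encoding the secreted chaperone clusterin, remained well detected, from 295, 283 and 256 to 79, 50.0 and 53 FPKM (log2 fold change -2.21 ± 0.16 SE, adjusted p = 3.38e-06), as did *Selp*, P-selectin, from 80.7, 76.3 and 83.3 to 32.8, 23.7 and 25.1 FPKM (log2 fold change -1.54 ± 0.151 SE, adjusted p = 2.18e-05). *Nupr1*, a stress-induced chromatin protein, fell from 1095, 1221 and 981 to 119, 289 and 333 FPKM (log2 fold change -2.27 ± 0.301 SE, adjusted p = 0.000166). *Gem*, a small GTPase of the RGK family named here after its value was seen, was the riser, at 53.6, 53.6 and 43.9 FPKM in G4 and 451, 349.8 and 277 FPKM on day 4 (log2 fold change 2.79 ± 0.165 SE, adjusted p = 1.05e-06).

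Across the 8 groups of bulk libraries, the median level of the aging genes on the log2(FPKM + 1) scale was 1.66 ± 0.07 (SD, n = 3) in young HSCs, 3.65 in unseparated old HSCs, 4.26 ± 0.14 in G4 and 1.77 ± 0.09 on day 4 in CD150high cells. The median level of the mitotic entry genes was 3.28 in young HSCs, 2.37 ± 0.71 in G4 and 4.53 ± 0.12 on day 4. The HSC transcription factors were at 4.04 in young HSCs, 4.58 in G4 and 3.50 on day 4. By these medians the day-4 CD150high cells were near young HSCs in the aging genes, above them in mitotic genes and below them in HSC factors, with no test. CD150low cells on day 4 stood at 1.67, 4.52 and 3.35 in the same lists, so these positions were not particular to CD150high cells. The medians cover genes that passed the filter in G4 or on day 4. The aging list was lower in young than in old HSCs, so a fall of its genes moved the median toward young HSCs. Single aging genes differed from young HSCs in both directions. Mean levels on day 4 and in young HSCs were 247 and 83.4 FPKM for *Nupr1* and 60.7 and 22 FPKM for *Clu*. For *Gpr183* they were 0.147 and 0.64 FPKM.

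**Figure D3:**
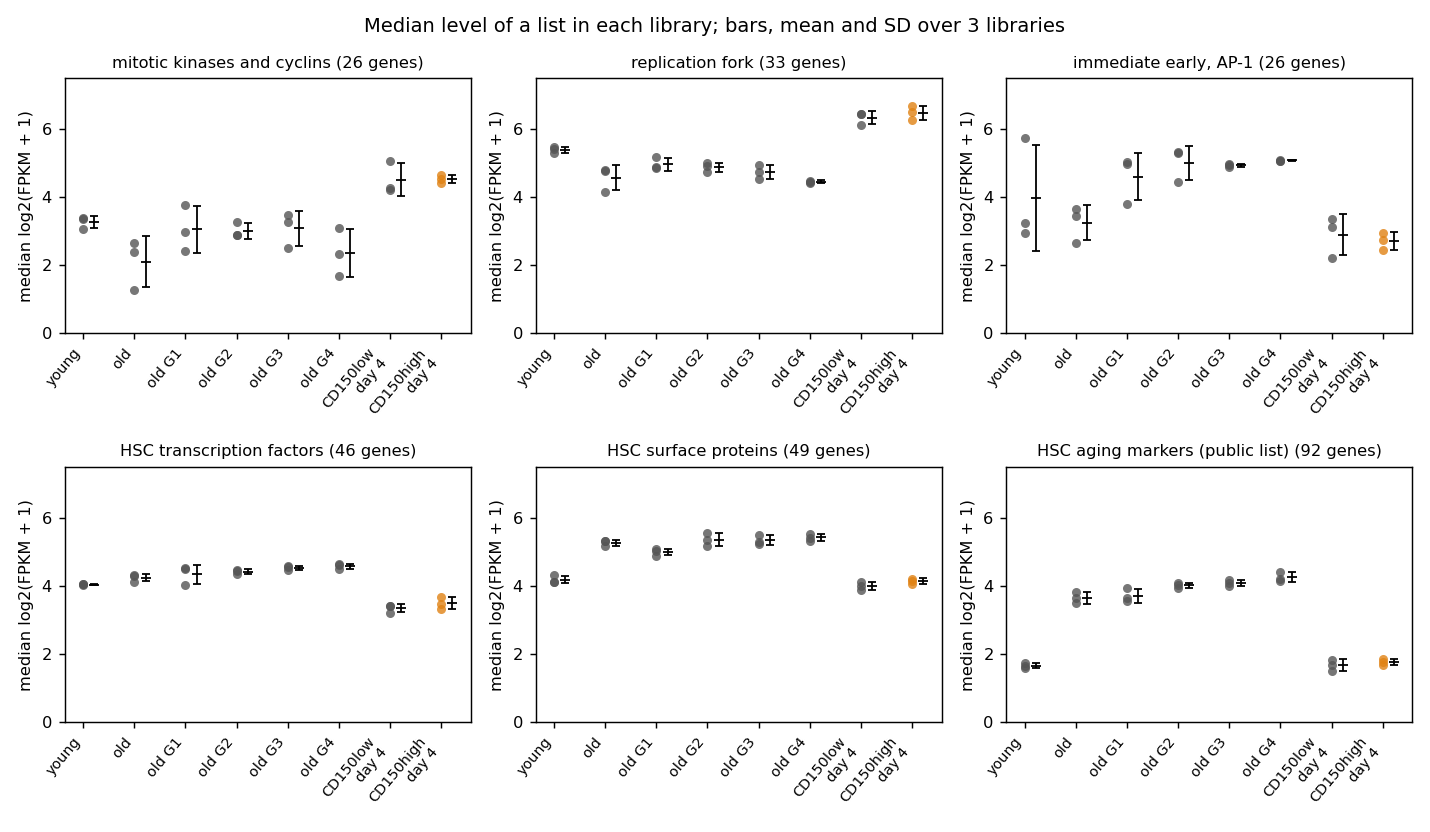
Each panel gives 1 gene list, with the median log2(FPKM + 1) of its genes in every library of the 8 bulk groups. The aging genes stand at 4.26 in fresh G4 HSCs, at 1.77 in day-4 CD150high HSCs and at 1.67 in day-4 CD150low HSCs, next to 1.66 in young HSCs.

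Stress and activation genes of the fresh cells fell as a block. Of 26 immediate early genes, which respond within minutes to growth factors and to cell handling, 21 fell and none rose (median -1.68). *Jun*, a subunit of AP-1, went from 177, 183.5 and 175 to 4.48, 12.2 and 8.72 FPKM (log2 fold change -4.34 ± 0.264 SE, adjusted p = 1.28e-06) and *Junb* from 214, 309.6 and 277 to 28.5, 13.7 and 18.6 FPKM (log2 fold change -3.70 ± 0.231 SE, adjusted p = 1.46e-06). *Fos*, its partner, was more variable, at 49.5, 79.2 and 25.8 FPKM in G4 and 0.399, 4.35 and 7.06 FPKM on day 4 (log2 fold change -3.60 ± 0.585 SE, adjusted p = 0.000657). *Dusp1*, a phosphatase of MAP kinases, fell from 86.7, 129 and 123 to 3.23, 16.7 and 10.2 FPKM (log2 fold change -3.57 ± 0.417 SE, adjusted p = 7.29e-05). The list also varied among fresh HSCs, since its median level was 3.98 ± 1.55 in young, 3.26 ± 0.52 in unseparated old and 5.09 ± 0.01 in G4 libraries against 2.72 ± 0.26 on day 4 (SD, n = 3). The part of cell handling in this fall was not tested.

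Inflammatory and p53 targets shared this direction. Of 24 genes of NF-kB signaling and inflammation 12 fell (median -1.09) and 2, *Ccl6* and *Ccl8*, rose. *Ccl4*, a chemokine, fell from 102, 109 and 110.2 to 8.8, 4.73 and 2.36 FPKM (log2 fold change -4.24 ± 0.317 SE, adjusted p = 4.07e-06), *Ltb*, lymphotoxin beta, from 122, 141 and 125 to 39.5, 8.59 and 8.63 FPKM (log2 fold change -3.06 ± 0.448 SE, adjusted p = 0.000327), and *Traf1*, an NF-kB target, from 21.3, 20.4 and 22.8 to 0, 2.8 and 6.9 FPKM (log2 fold change -2.85 ± 0.589 SE, adjusted p = 0.00292). Of 28 p53 targets 9 fell and 2, *Gtse1* and *Ckap2*, rose (median -0.67). Both risers are known to act in mitosis. *Plk2*, a polo-like kinase induced by p53, fell from 62, 70.3 and 64.9 to 3.29, 1.54 and 3.63 FPKM (log2 fold change -4.17 ± 0.252 SE, adjusted p = 1.25e-06), and *Perp*, a membrane protein of p53-dependent apoptosis, from 7.19, 10.3 and 11.4 to 2.57, 0 and 0.995 FPKM (log2 fold change -2.45 ± 0.438 SE, adjusted p = 0.00124).

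Interferon-response genes were not uniform. Of 53, 13 fell and 2 rose (median -0.49). Over all genes tested 15.8% fell and 7.94% rose, the shares beside which this list and the class I list below stand. *Gbp6* and *Gbp2*, guanylate-binding GTPases, fell from 22.3, 32.2 and 23.9 to 3.75, 5.43 and 1.9 FPKM (log2 fold change -2.59 ± 0.312 SE, adjusted p = 9.06e-05) and from 56.9, 49.5 and 49.1 to 13.3, 16.6 and 13.6 FPKM (log2 fold change -1.77 ± 0.163 SE, adjusted p = 1.44e-05), and *Parp14*, an interferon-induced ADP-ribosyltransferase, fell by 1.97 on the log2 scale. The risers were *Ifi27l2a*, one of the largest rises in the data, from 0.113, 0 and 0.499 to 114, 46.7 and 87.7 FPKM (log2 fold change 6.05 ± 0.34 SE, adjusted p = 8.47e-07), and its relative *Ifi27*, from 96.5, 86 and 62.5 to 166.5, 152 and 238 FPKM (log2 fold change 1.17 ± 0.19 SE, adjusted p = 0.000678). Of 17 genes of MHC class I presentation 4 fell, or 8 under TPM scaling, and none rose (median -0.71), including *H2-T23*, the nonclassical Qa-1 molecule, from 598, 609 and 548 to 251, 229.9 and 203 FPKM (log2 fold change -1.36 ± 0.0952 SE, adjusted p = 2.72e-06).

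Signaling genes held some of the largest single changes. *Id1*, an inhibitor of bHLH factors and a target of BMP and cytokine signals, rose from 1.16, 1.31 and 0.964 to 45.5, 40.8 and 68.1 FPKM (log2 fold change 4.58 ± 0.259 SE, adjusted p = 8.7e-07). *Id1* and *Id3* (log2 fold change of *Id3* 2.35 ± 0.434 SE, adjusted p = 0.00149) were the 2 risers of 24 TGF-beta and BMP genes. The 5 fallers included the ligand *Bmp4* (log2 fold change -2.21 ± 0.423 SE, adjusted p = 0.00187). These counts stand beside 7.94% risers and 15.8% fallers over all genes tested. *Socs3*, feedback inhibitor of gp130 cytokines, fell from 7.45, 5.97 and 13.5 to 0.156, 0 and 0.404 FPKM (log2 fold change -3.01 ± 0.349 SE, adjusted p = 6.83e-05), while *Socs2*, feedback inhibitor of growth hormone and STAT5 signals, rose from 18.2, 7.29 and 10.5 to 28.8, 34.5 and 43.4 FPKM (log2 fold change 1.56 ± 0.292 SE, adjusted p = 0.00167). The list of JAK-STAT feedback genes that holds both had 2 risers and 7 fallers of 22 (median -0.59). *Socs3* passed the filter through G4 alone, and *Id3* through the day-4 group alone. In the retinoid list 6 of 11 fell and none rose (median -1.04), among them *Rarb*, a retinoic acid receptor that is also a target of retinoic acid (log2 fold change -2.45 ± 0.252 SE, adjusted p = 3.06e-05), and *Dhrs3*, which reduces retinal (log2 fold change -3.64 ± 0.392 SE, adjusted p = 4.16e-05).

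Receptors and secreted factors also lost many members. Of 40 G protein-coupled receptors and ion channels, 17 fell (median -0.87) and 2, *Ccr3* and *Ccr9*, rose. This list shares members such as *Gpr183* and *Clca3a1* with the HSC surface and aging lists, so its falls are in part the same genes. *Gpr183*, the oxysterol receptor EBI2, went from 81.4, 63.6 and 68.3 to 0, 0 and 0.44 FPKM (log2 fold change -5.99 ± 0.26 SE, adjusted p = 2.43e-07), and *Ptger4*, a prostaglandin E2 receptor, from 42.8, 40.9 and 29.7 to 2.9, 3.17 and 4.35 FPKM (log2 fold change -3.11 ± 0.239 SE, adjusted p = 4.74e-06). Of 22 genes of matrix, complement and secreted factors 13 fell (median -1.15) and 3 rose, *Col4a1*, *Col4a2* and *Sparc*, of which *Sparc* lost its call when any library but replicate 3 of the day-4 group was left out (1.02 to 1.62). *Matn4*, a matrix protein known to curb HSC proliferation, fell from 15, 17 and 13.3 to 0.948, 0.536 and 0.23 FPKM (log2 fold change -3.38 ± 0.294 SE, adjusted p = 1.06e-05). *Ntf3*, neurotrophin 3, was at 11.5, 6.68 and 4.63 FPKM in G4 and listed at 0 in the 3 day-4 libraries (adjusted p = 6.39e-05). *Ntf3*, *Gpr183* and *Matn4* passed the filter through G4 alone, so they could only be lower on day 4.

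Further falls lay outside these groups. *Cldn5*, a claudin of endothelial tight junctions, went from 95.8, 107 and 139 to 0, 0 and 3.2 FPKM (log2 fold change -6.14 ± 0.481 SE, adjusted p = 5.41e-06). *Klrb1c*, the lectin receptor NK1.1, went from 58.4, 56.9 and 60.7 to 3.61, 1.33 and 1.27 FPKM (log2 fold change -4.36 ± 0.287 SE, adjusted p = 1.86e-06). *Rora*, a nuclear receptor, and *Tef*, a PAR bZIP factor, were among 7 of 16 circadian genes that fell, with none rising (median -0.86). Under TPM scaling, which raised the number of falls over all genes, 11 fell. *Rora* and *Tef* fell by 2.16 and 2.09 on the log2 scale. *Trim47*, a ubiquitin ligase, was far more abundant, at 407, 341 and 385 FPKM in G4 and 23.1, 20.7 and 22.7 FPKM on day 4 (log2 fold change -4.03 ± 0.113 SE, adjusted p = 8.9e-09).

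Several lists held genes of both directions. Of 47 cytoskeletal and motility genes 14 rose and 5 fell (median 0.56), or 9 and 5 under TPM scaling. *Lgals1*, galectin-1, rose from 12.4, 7.19 and 7.38 to 211, 127 and 149.8 FPKM (log2 fold change 4.04 ± 0.234 SE, adjusted p = 9.86e-07) and *Vim*, the intermediate filament vimentin, from 37.3, 39 and 26.3 to 188, 137 and 156 FPKM (log2 fold change 2.20 ± 0.172 SE, adjusted p = 5.27e-06). *Rhob*, a GTPase that is also an immediate early gene, fell from 11.5, 15.8 and 13 to 1.78, 0.88 and 0.714 FPKM (log2 fold change -2.79 ± 0.3 SE, adjusted p = 4.18e-05). Of 38 lysosomal and autophagy genes 9 fell and none rose (median -0.50), beside 15.8% and 7.94% of all genes tested. Among the fallers was *Ctsf*, a cysteine cathepsin (log2 fold change -3.48 ± 0.203 SE, adjusted p = 1.01e-06). Of 37 redox and metallothionein genes 13 fell and 5 rose (median -0.57), or 15 and 3 under TPM scaling. *Xdh*, xanthine dehydrogenase, fell from 17.7, 31.2 and 23.7 to 0, 1.49 and 2.3 FPKM (log2 fold change -3.61 ± 0.427 SE, adjusted p = 7.91e-05), while *Mt1*, metallothionein 1, did not pass 2-fold at 693, 527.5 and 866 FPKM and 485, 455 and 572 FPKM (log2 fold change -0.44 ± 0.156 SE, adjusted p = 0.0409). Of 52 chromatin regulators 7 rose and 8 fell, the latter close to the 15.8% over all genes tested, and under TPM scaling 5 rose and 14 fell. *Ezh2*, the Polycomb methyltransferase of dividing cells, rose from 15.3, 20.9 and 26.4 to 87.4, 65.2 and 80.4 FPKM (log2 fold change 1.87 ± 0.201 SE, adjusted p = 4.16e-05), and its homolog *Ezh1* fell from 26.4, 30.3 and 22.9 to 2.7, 5.9 and 5.1 FPKM (log2 fold change -2.35 ± 0.275 SE, adjusted p = 7.32e-05).

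**Figure D4:**
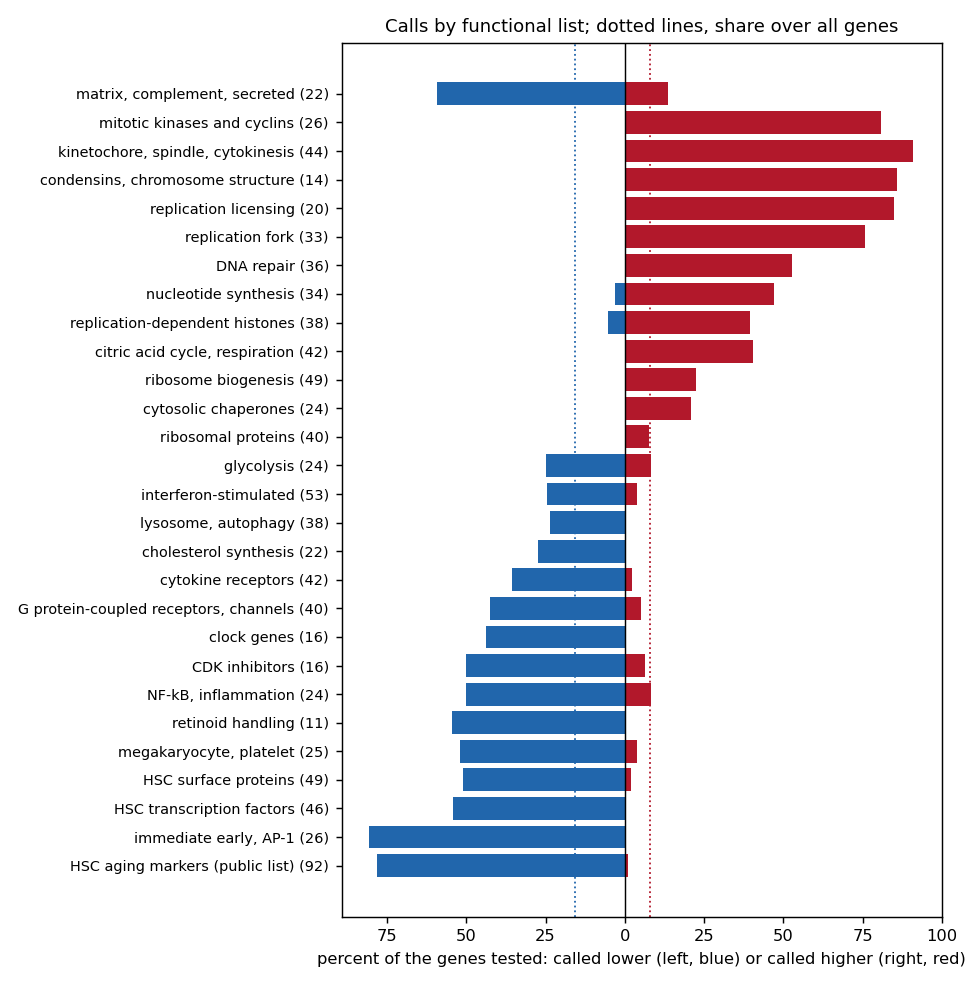
Bars give the percentage of tested genes of each list that rose (to the right) or fell (to the left) by more than 2-fold at an adjusted p under 0.05, and dotted lines mark the shares over all genes tested, 7.94% and 15.8%. The mitosis and replication lists stand beyond the line for rises with no gene falling, and the aging and immediate early lists stand beyond the line for falls.

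Markers of other blood cells moved with the day-4 group. Of 27 tested macrophage markers 18 rose and 1, *Cd14*, fell (median 2.28, or 1.72 without 7 genes listed at 0 in every G4 library). *C1qb*, a chain of complement C1q, was listed at 0 in the 3 G4 libraries and at 74.5, 33.5 and 107 FPKM on day 4 (adjusted p = 1.6e-06), and *C1qa* at 0 and at 46, 16.8 and 45.4 FPKM. The markers *C1qc* and *Fcna* were also at 0 in G4 and reached 66.3, 20.7 and 58.1 FPKM and 34.6, 11.9 and 20.9 FPKM. *Fabp4*, outside the marker list, went from 0 to 95.7, 12 and 29.2 FPKM. All of these genes were among the 12 largest rises named by rule. Being listed at 0 in G4, they passed the filter through the day-4 group alone and could only be higher. *Tyrobp*, an adaptor of myeloid receptors, rose from 0.502, 2.25 and 1.22 to 91.3, 49.3 and 83.1 FPKM (log2 fold change 5.05 ± 0.329 SE, adjusted p = 1.82e-06), and *Hmox1*, heme oxygenase, from 1.18, 2.95 and 4.14 to 47, 13.1 and 59.4 FPKM (log2 fold change 3.28 ± 0.508 SE, adjusted p = 0.000481). In each of these genes replicate 2 of the day-4 group was the lowest of the 3. Over all 31 markers, the summed level was 630 to 659 FPKM in G4 and 753 to 1129 FPKM on day 4, and 9 of them were at 0 in every G4 library. Of these 31, *Hmox1* and *Slc40a1* are also in the redox or iron lists, and the part of macrophage RNA in the risers of other lists was not tested.

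Beta globin transcripts rose, while the other lineage marker lists differed in direction. *Hbb-bt* and *Hbb-bs*, the beta globins of adult red cells, went from 22, 17.6 and 23 to 399, 706 and 475 FPKM (log2 fold change 4.56 ± 0.192 SE, adjusted p = 2.33e-07) and from 16.4, 8.3 and 13.9 to 187, 306.5 and 244 FPKM (log2 fold change 4.17 ± 0.24 SE, adjusted p = 9.56e-07), although reads of this near-identical pair could be split between them. With *Epor* and *Gata1*, whose calls were lost in some alternatives, they were the 4 of 8 erythroid markers called higher (3 under TPM scaling). The summed level of all 18 was 1376 to 1552 FPKM in G4 and 1495 to 1932 FPKM on day 4. Beta globin also varied among fresh HSCs, with *Hbb-bs* at 297, 23 and 46.2 FPKM in unseparated old HSCs. Its mean in young HSCs was 43.4 FPKM. Day-4 CD150low HSCs had means of 249.7 FPKM for *Hbb-bs* and 521.6 FPKM for *Hbb-bt*, so the rise was not particular to CD150high cells. Of 17 neutrophil markers 4 were tested, of which *Prtn3* and *Csf3r* fell (median -2.56 for these), while *S100a8* and *S100a9* were listed at 0 in every day-4 library and passed the filter through G4 alone. The sum of all 17 was 699 to 821 FPKM in G4 and 110 to 155 FPKM on day 4. *Prtn3*, encoding a granule protease whose transcript marks myeloid progenitors, carried most of that sum and fell from 733, 729 and 665 to 105, 152.5 and 133 FPKM (log2 fold change -2.45 ± 0.126 SE, adjusted p = 5.4e-07). *S100a8* was at 10.9, 42 and 6.14 FPKM in G4 and listed at 0 in all day-4 libraries (adjusted p = 0.000236).

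Genes of class II presentation fell as well, though they are also expressed by part of the HSC pool. *Cd74*, the invariant chain, went from 853, 862 and 899 to 151, 72.7 and 97.2 FPKM (log2 fold change -3.08 ± 0.203 SE, adjusted p = 1.86e-06) and *H2-Aa* from 256, 333 and 384 to 43.3, 55.5 and 37 FPKM (log2 fold change -2.81 ± 0.174 SE, adjusted p = 1.38e-06). Among 11 dendritic cell and class II markers 5 fell and 2, *Ly86* and *Ccr9*, rose (median -1.01). The sum of the whole list fell from 1772 to 2001 FPKM to 431 to 571 FPKM. *Cd74*, *H2-Aa* and *H2-Eb1* carried most of that sum, with means of 871, 324 and 201 FPKM in G4. The median level of the 11 markers on the log2(FPKM + 1) scale was instead higher on day 4, at 3.32 ± 0.81 against 2.25 ± 0.31 in G4 (SD, n = 3). No B cell marker of 4 tested was called. Of 4 tested T and NK cell markers 1, *Nkg7*, rose and 2 fell. Of 4 tested eosinophil, basophil and mast cell markers 1, *Ccr3*, rose and 1 fell. Of 6 stromal and endothelial markers 2 rose and 1 fell, with a median of 0.54 that turned to -0.32 under TPM scaling. Replicate 1 of the day-4 group alone held *Hba-a1* at 100.4 FPKM, *Stab2* at 48.1 FPKM and *Fcer1a* at 36.7 FPKM, and without it 944 genes rose and 1897 fell.

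The response of CD150high HSCs was next set against that of CD150low HSCs, which were also transplanted and sorted again. The CD150low cells were compared with fresh G1 HSCs, the 25% with the lowest CD150. The gate of the second sort is not given for either group. G1 and G4 came from the same 3 mice by their labels, a pairing that the main test of the difference did not use. In the CD150low comparison 677 of 11584 genes rose (5.84%) and 1317 fell (11.4%). The 136 cell cycle genes had a median of 2.26 in CD150high cells, and in CD150low cells 90 of 137 rose with a median of 1.51. Their median level (log2(FPKM + 1), SD, n = 3) was 3.34 ± 0.32 in fresh G4 and 3.97 ± 0.27 in fresh G1 HSCs, and 5.55 ± 0.12 and 5.39 ± 0.20 on day 4, so that the groups were closer after transplantation than before. Of the 137 genes, 41 had an unadjusted p under 0.05 for the difference of the responses, and none passed the adjustment over all genes. *Ncapg2*, a condensin subunit, rose by 2.81 on the log2 scale in CD150high cells and changed by 0.71 in CD150low cells, a difference of 2.10 ± 0.467 SE (adjusted p = 0.523). That was the smallest adjusted p among the cell cycle genes, and *Clspn* had the same value (difference 1.52 ± 0.349 SE). The list of matrix, complement and secreted factors had a median of -1.15 over 22 genes in CD150high cells, where 3 rose and 13 fell. In CD150low cells it had a median of 0.63 over 32 genes, of which 6 rose and 12 fell. Each comparison kept the genes that reached 1 FPKM in its own groups. The 2 medians thus cover different genes, do not contrast the responses like for like, and their difference was not tested.

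Of 11894 genes tested for a difference between the responses, 1 was called (0.00841%), and 786 (6.61%) had an unadjusted p under 0.05. The gene was *Wfdc17*, a secreted protease inhibitor of myeloid cells. It rose in CD150high cells from 10.4, 15 and 8.33 to 28.8, 23.7 and 34 FPKM (log2 fold change 1.31 ± 0.239 SE, adjusted p = 0.00142). In CD150low cells it fell from 122.5, 117 and 178 to 33.5, 22.8 and 13.3 FPKM, and the difference of the log2 fold changes was 3.91 (adjusted p = 0.00327). *Slamf1* fell by 1.58 in CD150high cells and had a log2 fold change of -0.60 in CD150low cells, a difference of -0.98 ± 0.335 SE that did not pass the test (adjusted p = 0.724). *Cd48* rose by 4.20 in CD150high and by 5.91 in CD150low cells, a difference of -1.72 ± 0.458 SE (adjusted p = 0.66). A p that misses the threshold does not show that the responses were alike. On simulated data the test recovered 33.3% of differences of 1.5, 55.2% of 2.0 and 79.1% of 3.0 on the log2 scale.

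**Figure D5:**
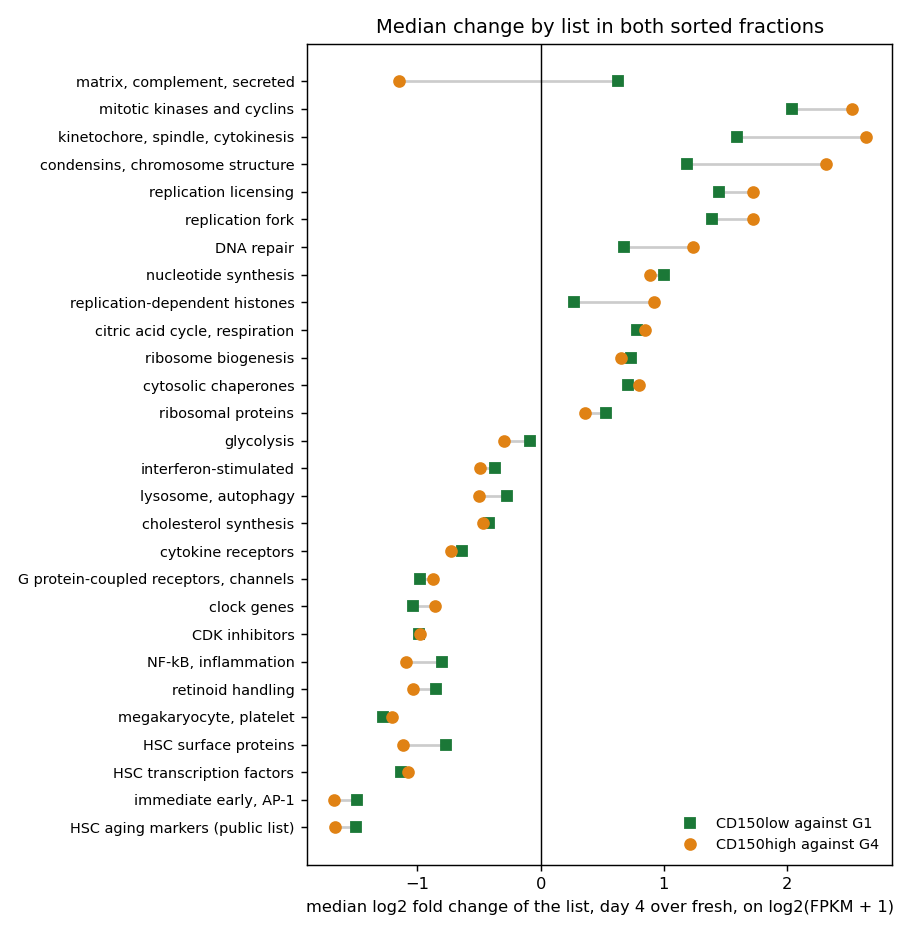
Each row is a gene list, with its median log2 fold change in CD150high cells against G4 (orange circles) and in CD150low cells against G1 (green squares). The mitosis and replication lists lie at 1.72 to 2.64 in CD150high cells. The list of matrix, complement and secreted factors lies at -1.15 over 22 genes in CD150high cells and at 0.63 over 32 genes in CD150low cells. These are different sets of tested genes.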

How the data were processed

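Poly(A)-primed Smart-seq2-type libraries were made from sorted cells with a kit that neither marks strand nor adds molecular identifiers. The authors deposited 1 table of FPKM per library, 21835 rows each, of which 10 repeated a symbol. The submitters' processing notes name Trim Galore, HISAT2 2.0.0, Cufflinks, SAMtools 1.14, HTSeq 0.12.4, DESeq2 1.22.2 and mm10, without saying which made the FPKM. The authors tested read counts with DESeq2. The tables used here hold no counts, so limma 3.58.1 (trend, in R 4.3.3) was run on log2(FPKM + 1). Genes with a group mean of at least 1 FPKM were tested, with Benjamini-Hochberg adjustment over all of them, and called where the adjusted p was under 0.05 and the change over 2-fold in either direction. Read totals are unknown, so no counting interval was given. The fits were tested on simulated data.

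The members and the 56 gene lists were chosen with earlier results of these data known. The lists overlap, and a gene in several of them is counted in each. Genes were named if they were among the 12 largest rises or falls without overlap at 10 FPKM or more, the 4 largest called changes of a list, or preset anchors. *Ccr9*, *Cd14*, *Ckap2*, *Cmpk2*, *Col4a1*, *Col4a2*, *Fcer1a*, *Gem*, *Gtse1*, *H1f2*, *H3c6*, *Hba-a1*, *Ifi27*, *Rgcc*, *Slc16a1* and *Stab2* were named after their values were seen. Other scalings, pseudocounts, filters, designs and single libraries left out were tried as alternatives.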

Additional observations from a re-analysis of the deposited data

Results flagged for a closer look

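*Wfdc17* was singled out because its response to transplantation differed between CD150high and CD150low HSCs by a test of that difference. Its log2 fold change was 1.31 in CD150high cells and -2.60 in CD150low cells, a difference of 3.91 ± 0.431 SE (limma, adjusted p = 0.00327). Fresh G1 libraries held 122.5, 117 and 178 FPKM and fresh G4 libraries 10.4, 15 and 8.33 FPKM. On day 4 the ranges of the CD150low and CD150high libraries overlapped, at 33.5, 22.8 and 13.3 FPKM and 28.8, 23.7 and 34 FPKM.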

How the results depend on the processing

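The counts of risen and fallen genes were 915 and 1824. Without the 2-fold limit they were 2101 and 3077, and under TPM scaling 624 and 2852. They stayed within 1.5 times of the main counts with a pseudocount of 0.1 (968 and 1943), no filter (816 and 1330 of 17791 genes), a filter at 5 FPKM (829 and 1371), median-ratio scaling (1074 and 1561), no variance trend (890 and 1718) and all 24 libraries in 1 fit (922 and 1849). With single libraries left out the counts were 834 to 944 and 1539 to 1897, and of the 2739 genes called 2258 to 2424 were still called and 0 had the opposite direction.

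With a replicate block 932 genes rose, 1855 fell and 1 differed between the responses. Deviations of same-numbered libraries correlated at -0.013 to 0.021, and those of differently numbered libraries at -0.028 to 0.038. With values this near 0 for both, the check cannot decide whether the numbers pair the samples. The count of genes whose responses differed was 7 without a filter and 1 to 12 with single libraries left out, 12 without replicate 3 of the CD150low day-4 group.

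Of the 206 genes named by rule, 199 were called, and 176 of these kept their call in every alternative, 23 lost it in at least 1 and 0 reversed it. *Cxcr4*, not called, went from 0.10 to -0.14 under TPM scaling and to between -0.14 and 0.31 without single libraries. *Ly6a*, not called, went from -0.04 to 0.07 under median-ratio scaling and to between -0.15 and 0.03 without single libraries. Sequencing depth is unknown, which limits statements on genes near 0.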

Other observations

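*Plac8*, a gene of myeloid and lymphoid progenitors, was at 11.5, 13.7 and 0 FPKM in G4 and 63, 86.9 and 53.3 FPKM on day 4 (log2 fold change 3.56 ± 0.806 SE, adjusted p = 0.0049), and the G4 library listed at 0 stood apart from the other two. Among 24 genes of lineage priming 6 rose and 6 fell, beside 7.94% and 15.8% of all genes tested. *Bok*, a BCL2-family member, rose (log2 fold change 2.02 ± 0.359 SE, adjusted p = 0.00117), and of 12 genes of that family *Bbc3* was the gene called lower (log2 fold change -1.42 ± 0.46 SE, adjusted p = 0.029), a call lost without single libraries other than replicate 1 of the day-4 group.

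Level went with direction. Of the 25% of tested genes with the lowest mean level 5.55% rose and 22.9% fell, and of the 25% with the highest 13.9% rose and 6.49% fell. Within the risen genes 15 were listed at 0 in every G4 library, and within the fallen genes 38 were listed at 0 in every day-4 library.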
